A study of Mus musculus with 18 samples.

Results

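The genes described here handle calcium in neurons: voltage-gated and store-operated channels, release channels of the endoplasmic reticulum, pumps and exchangers of the plasma membrane, calcium-binding buffers, a calcium sensor and calcium/calmodulin-dependent kinases. The set was a list of 34 genes named by function, and each gene was read from its brightest probeset that the platform annotation pairs with a single gene. A probeset is a group of array probes summarised as 1 value. Of the 34 genes, 32 were measured among 19937 named genes, and Atp2b4 and Cacnb3 were not analysed here.

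Calcium enters neurons through voltage-gated channels when the membrane depolarises, and a further route opens when the endoplasmic reticulum runs low, with Stim proteins sensing the loss and Orai proteins forming the pore. Inositol trisphosphate and ryanodine receptors release calcium from the endoplasmic reticulum. Plasma membrane pumps and sodium/calcium exchangers remove it, buffers such as calbindin bind it, and kinases of the Camk family are switched on by calcium-loaded calmodulin. Wolframin, the product of Wfs1, is a membrane protein of the endoplasmic reticulum.

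Expression was measured on 18 arrays of hypothalamus from wild-type and Wfs1 mutant mice, on a background given as 129SV for the samples and 129S6 for the series. No treatment or age is given, and neither the nature of the mutation nor whether each array is a separate animal is stated. Every p-value is therefore set by the scatter of the arrays, which may in part be technical. Each array had a pair of genotype labels, the ending of its title (10 ko, 8 wt) and its genotype field (9 KO, 9 WT). They gave the same genotype on 5 arrays named ko/KO and 4 named wt/WT, with the ending first, and contradicted each other on 5 named ko/WT and 4 named wt/KO. Arrays are numbered within these groups in the order of the samples. The Wfs1 level followed neither label, with 8.31 ± 0.31 log2 units (SD, n = 10) for ending ko and 8.12 ± 0.25 (SD, n = 8) for ending wt, and 8.252 ± 0.35 for field KO and 8.197 ± 0.24 for field WT (SD, n = 9 each), so the groups compared are groups of labels and may not be genotypes.

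Values are the authors' log2 expression values, on which a difference of 1 is a doubling. Array medians lay between 7.10 and 7.19, and pairs of arrays correlated at 0.975 to 0.991 across probesets. Hypothalamic neuropeptide genes were bright on every array: Avp lay between 9.44 and 10.89, Oxt between 10.02 and 11.15, Pmch between 11.36 and 12.1 and Hcrt between 9.11 and 10.06. Pomc, at 7.3 to 7.98, was dimmer. On 2 arrays the level of Xist or Ttr stood far from its level on the other arrays. Xist was lowest on ko/WT 4, at 5.93 against a median of 10.45, and the choroid plexus gene Ttr was highest on wt/WT 3, at 12.8 against a median of 8.83. Ttr was not alone on wt/WT 3, where the mean of 12 choroid plexus markers, described further on, was also highest, at 7.57. Results for the genes of the set are given without ko/WT 4 and wt/WT 3 where that changed them.

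The calcium genes gave bright and steady signals. Of the 32 genes, 29 were brighter than the median named gene, which lay at 7.60, and 0 had a mean below 5.81, the lowest array's quartile of all probesets. Their median SD over the 18 arrays was 0.101 log2 units, against 0.133 for all genes. 12 of the 32 lay below the 10th percentile of SD and 2 above the 90th. Among 59 other genes of calcium signalling, described further on, 51 were brighter than the median named gene and the median SD was 0.114. The spread is not set against genes of like brightness here. Probesets differ in how strongly they bind their target, so the order of brightness below is not an order of transcript number.

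The pumps, 2 buffers and the kinases of the Camk2 family were at the bright end. Atp2b1, a plasma membrane calcium pump, had the brightest probeset, at 11.57 ± 0.12 (SD, n = 18). Calb2, which encodes the buffer calretinin, followed at 11.10 ± 0.12 and Camk2a, a kinase subunit abundant in forebrain neurons, at 11.07 ± 0.08. The lowest Atp2b1 value, 11.37, lay just above the highest Calb2 value, 11.32, while Calb2 (10.81 to 11.32) and Camk2a (10.95 to 11.23) overlapped. Camk2b lay at 10.74 ± 0.07, the second pump Atp2b2 at 10.61 ± 0.13, Camk2d at 10.32 ± 0.06, the calcium sensor Hpca at 10.31 ± 0.08, the calbindin gene Calb1 at 10.29 ± 0.16 and Camk2g at 10.26 ± 0.06 (SD, n = 18 each). The last 4 of these differed in mean by less than the SD of Calb1. Cacnb4, an auxiliary subunit that helps bring channels to the membrane, was next at 10.20 ± 0.11.

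Pore-forming subunits of the voltage-gated channels spread over the middle of the order. Cacna1e, the R-type pore, had a mean of 9.87 ± 0.10 and Cacna1b, the N-type pore that drives transmitter release, 9.74 ± 0.09 (SD, n = 18 each). The T-type pores, which open near the resting potential, lay at 9.51 ± 0.15 for Cacna1g, 8.46 ± 0.08 for Cacna1i and 7.91 ± 0.08 for Cacna1h. Cacna1a, the P/Q-type pore, was at 9.36 ± 0.11. The L-type pores were at 9.16 ± 0.09 for Cacna1c and 8.46 ± 0.08 for Cacna1d, so Cacna1d and Cacna1i did not differ beyond their spread. Among the auxiliary subunits Cacnb1 was at 8.55 ± 0.08 and Cacnb2, the dimmest gene of the set, at 6.60 ± 0.16.

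The store-operated and release machinery reached from the middle to the dim end. Stim1 and Stim2, the sensors of the endoplasmic reticulum, lay at 9.37 ± 0.11 and 9.31 ± 0.08 (SD, n = 18 each). The pore genes Orai2 and Orai1 lay at 9.39 ± 0.26 and 7.5 ± 0.08. A second Orai2 probeset, described below, lay at 8.245 ± 0.085. Of the ryanodine receptors, Ryr2 was at 9.17 ± 0.10, Ryr3 at 8.51 ± 0.10 and Ryr1, best known from skeletal muscle, at 6.83 ± 0.08. Itpr2, an inositol trisphosphate receptor, was at 8.13 ± 0.06 and had the smallest SD of the set. The sodium/calcium exchangers Slc8a1 and Slc8a2 lay at 9.29 ± 0.20 and 8.48 ± 0.14, the buffer Pvalb at 9.52 ± 0.26 and the nuclear kinase Camk4 at 8.62 ± 0.10.

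**Figure D1:**
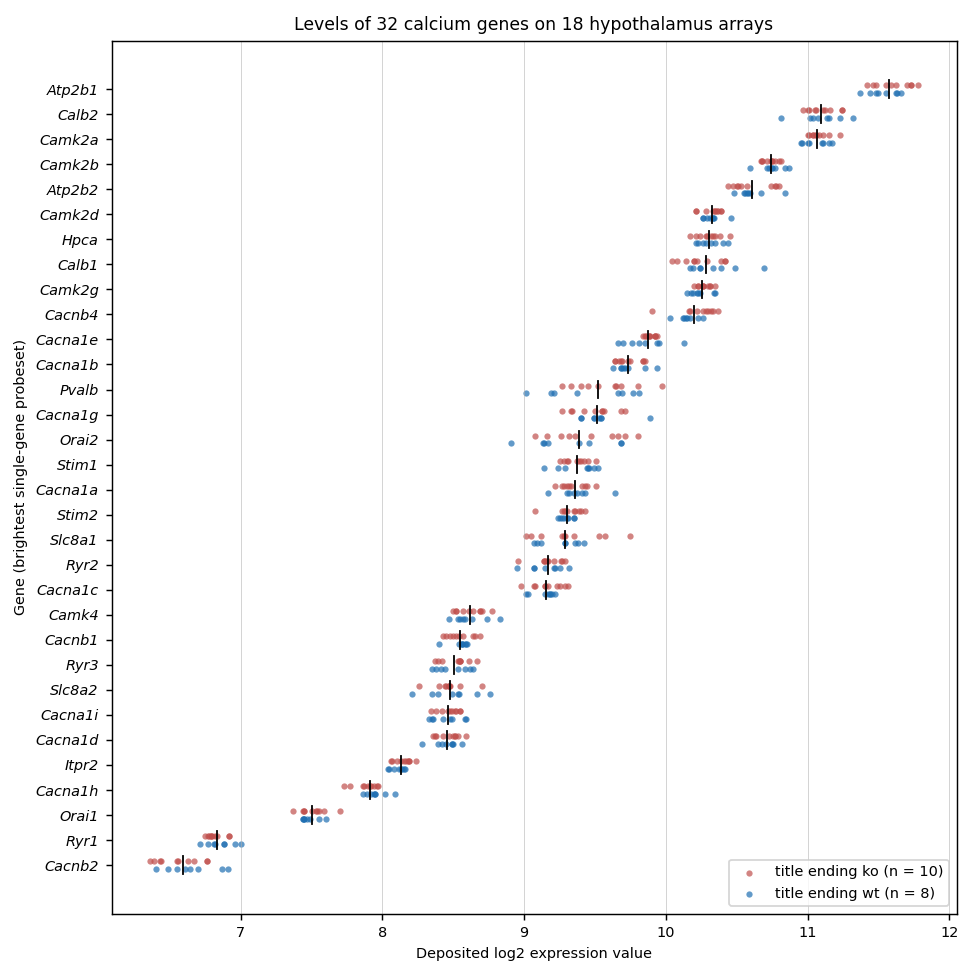
Deposited log2 value (horizontal axis) of the 32 measured calcium genes on 18 arrays, 1 dot per array, red for title ending ko (n = 10) and blue for ending wt (n = 8), with a bar at the mean. Genes are ordered by mean, from Atp2b1 at 11.57 to Cacnb2 at 6.60, and the widest clouds are those of Orai2 (8.91 to 9.8) and Pvalb (9.01 to 9.97).

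The 6 genes that varied most were Orai2, Pvalb, Slc8a1, Cacnb2, Calb1 and Cacna1g. Orai2 ran from 8.91 on wt/KO 2 to 9.8 on ko/WT 1, an SD of 0.26 that exceeded that of 96.2% of all genes. A second, dimmer Orai2 probeset, at 8.245 ± 0.085 (SD, n = 18), did not follow the first (r = -0.051, permutation p = 0.841). The spread was thus seen in only 1 of its probesets. Among the other genes of the set, probeset numbers are grouped by chromosome. Orai2 lies on chromosome 5, but the number of its brighter probeset falls between those of chromosomes 15 and 17. Whether that probeset reads Orai2 was not tested. Values given for Orai2 are those of the brighter probeset unless both are named. Slc8a1 ran from 9.01 on ko/KO 2 to 9.75 on ko/KO 5, both within 1 label group. Its second probeset, at 9.26 ± 0.12, varied with the first (r = 0.60, permutation p = 0.0086, and rho = 0.721, p = 9.3e-04).

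Pvalb, which marks fast-spiking inhibitory neurons in many brain regions, ran from 9.01 on wt/WT 2 to 9.97 on ko/WT 1. Within the 4 wt/WT arrays alone it took the values 9.21, 9.01, 9.77 and 9.69, a wide spread within 1 label group. Cacnb2 ran from 6.36 on ko/WT 3 to 6.91 on wt/KO 4, Calb1 from 10.04 on ko/WT 1 to 10.69 on wt/KO 1 and Cacna1g from 9.27 on ko/WT 3 to 9.89 on wt/WT 1. A single array, wt/WT 1, held the highest value for 10 of the 32 genes. They were Cacna1a, Cacna1b, Cacna1e, Cacna1g, Cacna1h, Cacna1i, Ryr2, Atp2b2, Stim1 and Slc8a2. The array wt/KO 4 held the lowest value for 7. No share over all genes is given beside these counts, so they are not read as a trait of the calcium genes.

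For each of the 4 most variable genes, the other named genes most like it were taken by Pearson r over 18 arrays, as a description. Orai2, by its brighter probeset, was most like Wnk4 (r = 0.810), Chrnb1 (0.809) and Tex48 (0.806). Pvalb was most like Cs (0.876), Mgme1 (0.829) and Fth1 (0.819), and Cacnb2 most like Bmp4 (0.863), Cypt1 (0.822) and Tnfaip3 (0.810). Slc8a1 stood apart in having 82 genes at an absolute r of 0.9 or more, led by Tpp2 (0.961), Prpf39 (0.955) and Fbxo11 (0.950), where the other 3 had 0. Slc8a1 also followed the first principal component of all genes, the axis of largest variation between arrays, which held 29.0% of the variance (r = -0.848, rho = -0.837, adjusted permutation p = 0.0013 over 64 relations, r = -0.903 without the 2 arrays farthest from the median). That component correlated at -0.814 with the SD of all values on an array, and 21% of all genes had an absolute r of 0.7 or more with it, against 2 of the 32 calcium genes.

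Ryr1 (r = 0.771 with this component, adjusted permutation p = 0.0041) and Itpr2 (r = -0.656, adjusted permutation p = 0.0413) passed the same test. With the SD of all values, Camk2g (r = 0.753, adjusted permutation p = 0.0041), Ryr1 (r = -0.668, adjusted permutation p = 0.0413) and Camk2d (r = 0.645, adjusted permutation p = 0.0413) passed it. Without the 2 farthest arrays the last pair had r = -0.391 and 0.524. No share over all genes is given for the SD of all values, so its relations are not read as particular to the calcium genes. Both array measures were added after the data had been seen, and their part in the results for these genes was not tested.

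No calcium gene passed the test between arrays by title ending. The fit used limma over all 19937 genes, and a gene was called where its Benjamini-Hochberg adjusted p was under 0.05, which 0 genes of the series were (percent called 0). At an unadjusted limma p under 0.05 there were 0 of the 32 calcium genes, against 4.63% of all genes. Means were higher with ending ko for 19 and lower for 13, where 51.8% of all genes were higher, and the median difference was 0.013 log2 units, against 0.0030 over all genes. Differences ran from -0.102 to 0.124 and their median standard error was 0.0522. The ranges overlapped for all 32 genes, and 0.00502% of all genes had ranges apart.

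The 3 smallest p-values by ending belonged to Cacna1h, Calb1 and Cacnb4. Cacna1h ran from 7.73 through a median of 7.91 to 7.97 with ending ko, and from 7.86 through 7.95 to 8.09 with ending wt. The difference was -0.0695 (SE 0.0435, limma adjusted p = 0.884). Calb1 lay between 10.04 and 10.42 (median 10.21) with ending ko and between 10.17 and 10.69 (median 10.29) with ending wt, a difference of -0.102 (SE 0.0704, limma adjusted p = 0.884). Its highest value belongs to wt/KO 1, and without that array the difference was -0.0529. Cacnb4 lay between 9.9 and 10.37 (median 10.27) against 10.03 to 10.26 (median 10.15), a difference of 0.0773 (SE 0.0546, limma adjusted p = 0.884). Of the marker lists described further on, 17 of 17 oligodendrocyte markers (median 0.0628) and 13 of 14 thalamic markers (median 0.108) were higher with ending ko, and 20 of 21 hypothalamic (median -0.0855) and 11 of 12 choroid plexus markers (median -0.115) lower. The choroid plexus values include wt/WT 3, where that list's mean was 7.57, with the next highest 7.06 on wt/WT 1. The part of the named lists in these differences was not tested.

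By the genotype field of the same 18 arrays, 4 of the 32 genes had an unadjusted limma p under 0.05, against 6.95% of all genes, and 0 passed the adjusted threshold (percent called 0). Means were higher for 13 and lower for 19 with field KO, where 47.2% of all genes were higher, and the median difference was -0.0083, against -0.0056 over all genes. Calb2 had the smallest p. It ran from 11.04 through a median of 11.16 to 11.32 with field KO and from 10.81 through 11.02 to 11.14 with field WT, so that the 6 highest arrays were all of the field KO and the 5 lowest all of the field WT. The difference was 0.151 (SE 0.0488, limma adjusted p = 0.694).

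Stim1 lay between 9.3 and 9.51 (median 9.44) with field KO and between 9.14 and 9.52 (median 9.29) with field WT, a difference of 0.108 (SE 0.0485, limma adjusted p = 0.694). Cacna1c lay between 8.98 and 9.25 (median 9.15) against 9.07 to 9.31 (median 9.2), a difference of -0.0956 (SE 0.0445, limma adjusted p = 0.694). The fourth gene, Calb1, differed by 0.140 (SE 0.0668, limma adjusted p = 0.694), the opposite sign from the difference by ending. The ranges again overlapped for all 32 genes, beside 0.00502% of all genes with ranges apart. With field KO 13 of 14 thalamic markers (median -0.0539) and 11 of 12 choroid plexus markers (median -0.113) were lower. The choroid plexus values include wt/WT 3, where that list's mean was 7.57, with the next highest 7.06 on wt/WT 1. Every measured microglia marker but Trem2 (-0.0333) was higher with field KO. The part of the named lists in the differences by field was not tested.

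**Figure D2:**
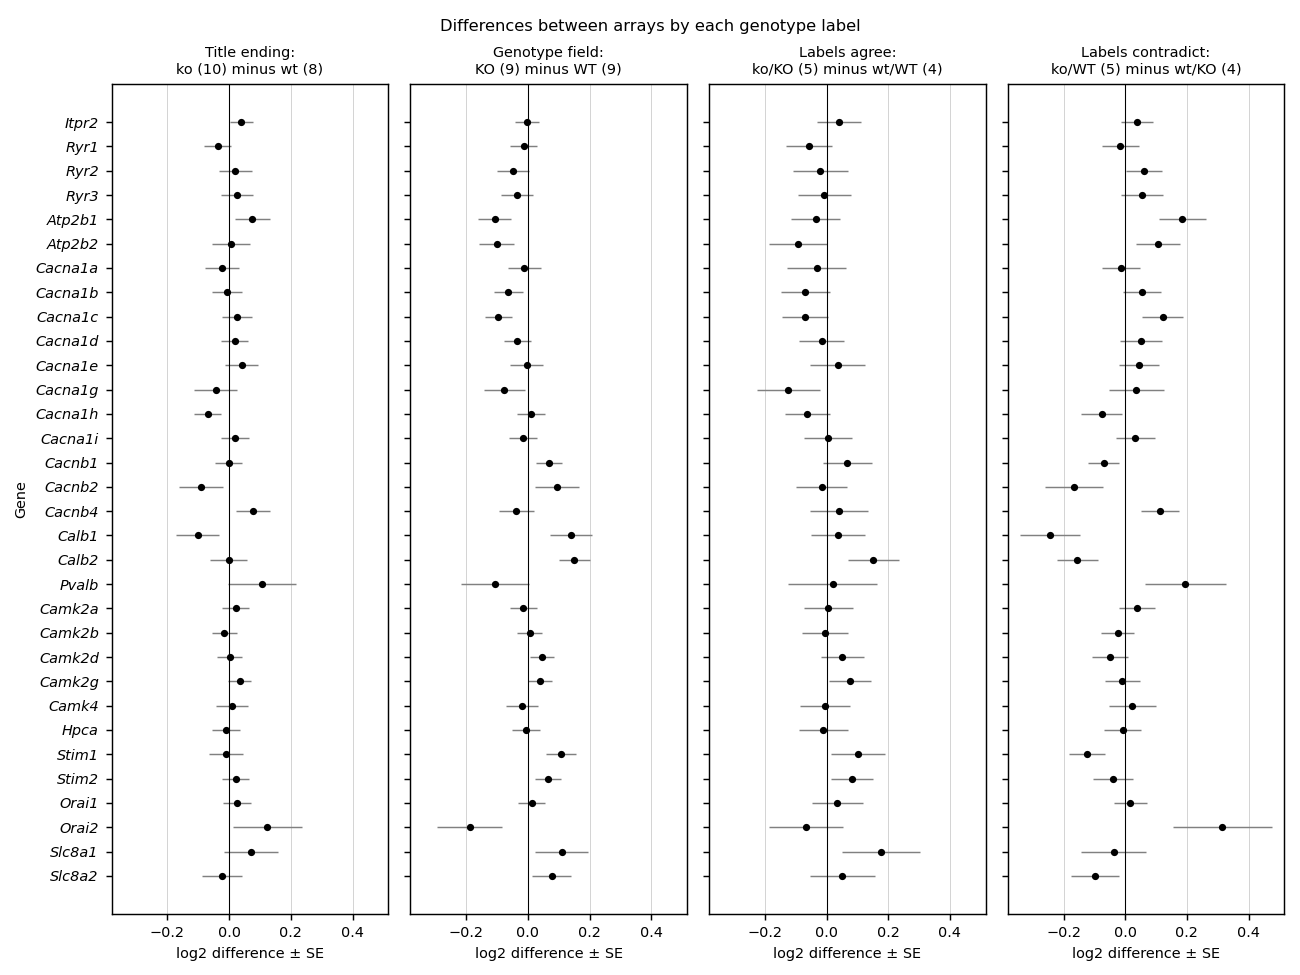
Log2 difference with its standard error from limma (horizontal axis) for 32 calcium genes in 4 comparisons, each panel headed by the groups and their numbers of arrays. By title ending the points lie between -0.102 and 0.124 and by genotype field between -0.189 and 0.151, and none passed the adjusted threshold in any panel.

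Where the labels agree, 5 ko/KO arrays were compared with 4 wt/WT arrays, which also enter both comparisons above. Of the 32 genes 0 had an unadjusted limma p under 0.05, against 11.1% of all genes, and 0 were called (percent called 0). Means were higher for 16 and lower for 16, where 49.5% of all genes were higher, with a median difference of -0.00025 and -0.0015 over all genes. On ko/KO 1 to 5 Calb2 took the values 11.11, 11.24, 11.06, 11.24 and 11.16, and on wt/WT 1 to 4 the values 11.02, 11.14, 11.07 and 10.81. The array wt/WT 4 lay lowest, and the difference of 0.152 (SE 0.0835, limma adjusted p = 0.4995) was 0.0853 without it.

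Slc8a1 took the values 9.53, 9.01, 9.29, 9.35 and 9.75 on ko/KO 1 to 5, and 9.12, 9.29, 9.07 and 9.36 on wt/WT 1 to 4. Both the lowest and the highest value of the 9 arrays were ko/KO, and the difference of 0.176 (SE 0.126, limma adjusted p = 0.582) was 0.270 without ko/KO 2 and 0.0850 without ko/KO 5. Cacna1g was 9.55, 9.55, 9.56, 9.33 and 9.34 on the ko/KO arrays and 9.89, 9.4, 9.53 and 9.54 on the wt/WT arrays. Only wt/WT 1 lay above every ko/KO array, and the difference of -0.124 (SE 0.102, limma adjusted p = 0.624) was -0.0240 without it and -0.187 without wt/WT 2. The ranges of all 32 genes overlapped, where 2.82% of all genes had ranges apart. In this comparison the 12 choroid plexus markers were all lower with ko/KO (median -0.230), and their mean level was highest, at 7.57, on wt/WT 3. Of the pan-neuronal markers 14 of 14 (median 0.0457) and of the oligodendrocyte markers 16 of 17 (median 0.0850) were higher, and 16 of 21 hypothalamic markers (median -0.0905) lower. Every measured microglia marker but Trem2 (-0.062) was higher, as was every astrocyte marker but Slc1a2 (-0.0525) and Fgfr3 (-0.042). The part of these lists in the differences was not tested.

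Where the labels contradict each other, 5 ko/WT arrays were compared with 4 wt/KO arrays. Here 3 of the 32 genes had an unadjusted limma p under 0.05, against 2.74% of all genes, and 0 passed the adjusted threshold (percent called 0). Means were higher for 17 and lower for 15 with ko/WT, where 53% of all genes were higher, and the median difference was 0.0197, against 0.0055 over all genes. Calb1 took the values 10.04, 10.14, 10.2, 10.08 and 10.39 on ko/WT 1 to 5 and 10.69, 10.39, 10.33 and 10.24 on wt/KO 1 to 4. All but 1 of the ko/WT arrays lay below every wt/KO array. The difference was -0.243 (SE 0.0976, limma adjusted p = 0.9998), and -0.150 without wt/KO 1.

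Atp2b1 was 11.62, 11.73, 11.42, 11.7 and 11.78 on the ko/WT arrays and 11.44, 11.5, 11.55 and 11.37 on the wt/KO arrays. Apart from ko/WT 3, every ko/WT array lay above every wt/KO array, and the difference was 0.185 (SE 0.0771, limma adjusted p = 0.9998). The 14 thalamic markers were all higher with ko/WT too, by a median of 0.138, and 19 of 21 hypothalamic markers were lower (median -0.0790). Every measured oligodendrocyte marker but Olig2 (-0.073) and Opalin (-0.0035) was higher. The part of these 3 lists in the difference of Atp2b1 was not tested. Calb2 was 11, 11.01, 11.12, 10.97 and 11.05 on the ko/WT arrays and 11.32, 11.04, 11.23 and 11.15 on the wt/KO arrays, a difference of -0.155 (SE 0.0656, limma adjusted p = 0.9998). No gene of the set had ranges apart, where 0.767% of all genes did.

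Whether the difference by ending depended on the field was tested by an interaction term over all 18 arrays. Cacnb2 had the smallest p of the 32 genes, and was the 1 gene with an unadjusted limma p under 0.05, against 5.18% of all genes. It took 6.76, 6.76, 6.67, 6.63 and 6.55 on the ko/KO arrays, 6.39, 6.56, 6.36, 6.44 and 6.43 on ko/WT, 6.4, 6.49, 6.61 and 6.91 on wt/KO and 6.55, 6.64, 6.87 and 6.7 on wt/WT. The ko/WT arrays had the lowest mean, 6.44, but overlapped each of the other groups, and the term was 0.326 (SE 0.126, limma adjusted p = 0.927). The terms for Pvalb (-0.349, SE 0.212, limma adjusted p = 0.927, and -0.213 without wt/WT 2) and Ryr1 (0.125, SE 0.0873, limma adjusted p = 0.927) came next. None of the 32 genes passed the adjusted threshold (percent called 0).

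A further list held 63 other genes of calcium signalling, among them calmodulins, calcineurin subunits, reticulum pumps and auxiliary channel subunits, and 59 were measured. By title ending 36 were higher and 23 lower (51.8% of all genes were higher), 2 with an unadjusted limma p under 0.05 (4.63% of all genes) and 0 called. Cacng2, which escorts AMPA receptors, differed by 0.125 (SE 0.0436), the mitochondrial uniporter gene Mcu by 0.136 (SE 0.0521) and Cacng8 by 0.0875 (SE 0.0461), each with a limma adjusted p of 0.884. At an unadjusted limma p under 0.05 there were 7 of the 59 by the genotype field, beside 6.95% of all genes, 3 where the labels agree, beside 11.1%, and 5 where they contradict, beside 2.74%. None was called in any of these comparisons.

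How the calcium genes varied together was examined over the 18 arrays, for all 496 pairs of the 32 genes. By Pearson r, 13 pairs passed an adjusted permutation p of 0.05, 11 of them positive and 2 negative, with an absolute r of 0.696 or more. By Spearman rho 0 pairs passed (lowest adjusted permutation p = 0.0556), and after quantile normalization 34 passed by Pearson r. Strong pairs were no more frequent than elsewhere on the arrays, since 12 of the 496 pairs (2.42%) had an absolute r of 0.7 or more, against 2.34% of all gene pairs and 3.58% without the dimmest 40% of genes. The median absolute r was 0.25 in the set and 0.260 over all pairs. The count also rested on single arrays: 0 pairs passed without wt/WT 1, ko/WT 1, ko/WT 2, ko/KO 3 or ko/KO 4, 4 without wt/KO 4, 8 without wt/WT 4 and 20 without wt/KO 1.

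Within this limit, the largest connected group held 4 pores, Cacna1a, Cacna1b, Cacna1d and Cacna1g, with Atp2b2 and Ryr3. Atp2b2 and Cacna1b had the largest r, 0.771 (rho = 0.654, adjusted permutation p = 0.0347 for r and 0.0895 for rho). Cacna1a and Cacna1g correlated at 0.765 (rho = 0.672, adjusted permutation p = 0.0347 and 0.0774), and Cacna1a and Cacna1b at 0.754 (rho = 0.586, adjusted permutation p = 0.0347 and 0.162). Atp2b2, Cacna1a, Cacna1b and Cacna1g were all highest on wt/WT 1. Without the 2 arrays farthest from the median the values of r were 0.624, 0.504 and 0.520, and within the label groups 0.731, 0.794 and 0.789. Ryr3 correlated with Cacna1b at 0.731 (rho = 0.775, adjusted permutation p = 0.0357 and 0.0556) and had the same r without the 2 farthest arrays, but did not pass without ko/WT 4 and wt/WT 3 (r = 0.737, adjusted permutation p = 0.0556).

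Atp2b1 and Cacna1c correlated at 0.754 (rho = 0.745, adjusted permutation p = 0.0347 and 0.0556), at 0.783 without the 2 farthest arrays and at 0.672 within label groups (adjusted permutation p = 0.0517). Ryr2 and Cacnb2 ran opposite ways, at -0.749 (rho = -0.770, adjusted permutation p = 0.0347 and 0.0556). Without ko/WT 4 and wt/WT 3 that r was -0.664, past the threshold no longer (adjusted permutation p = 0.0845). The other pairs that passed were Cacna1b with Cacna1g, Atp2b2 with Cacna1g, Camk2a with Camk2b, Ryr3 with Cacna1d, Cacna1e with Cacna1i, Cacna1c with Cacnb4 and, negatively, Calb1 with Orai2. That last pair rests on the brighter Orai2 probeset, which the second did not follow (r = -0.051).

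Several pairs whose products work together or are of the same kind did not pass. The kinase subunits Camk2a and Camk2b did, at 0.718 (rho = 0.728, adjusted permutation p = 0.0357 and 0.0556), while Camk2a and Camk2d had r = 0.301 (rho = 0.296, adjusted permutation p = 0.545). Stim1 and Orai1, sensor and pore of store-operated entry, had r = -0.340 (rho = -0.317, adjusted permutation p = 0.491). Stim2 and the brighter Orai2 probeset had r = -0.214 (rho = -0.169, adjusted permutation p = 0.697). The exchangers Slc8a1 and Slc8a2 had r = -0.160 (rho = -0.100, adjusted permutation p = 0.785). The buffers Calb1 and Calb2 had r = 0.592 (rho = 0.632, adjusted permutation p = 0.113), and their values with Pvalb did not pass either (r = -0.330 and -0.229, rho = -0.355 and -0.254, adjusted permutation p = 0.518 and 0.657).

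**Figure D3:**
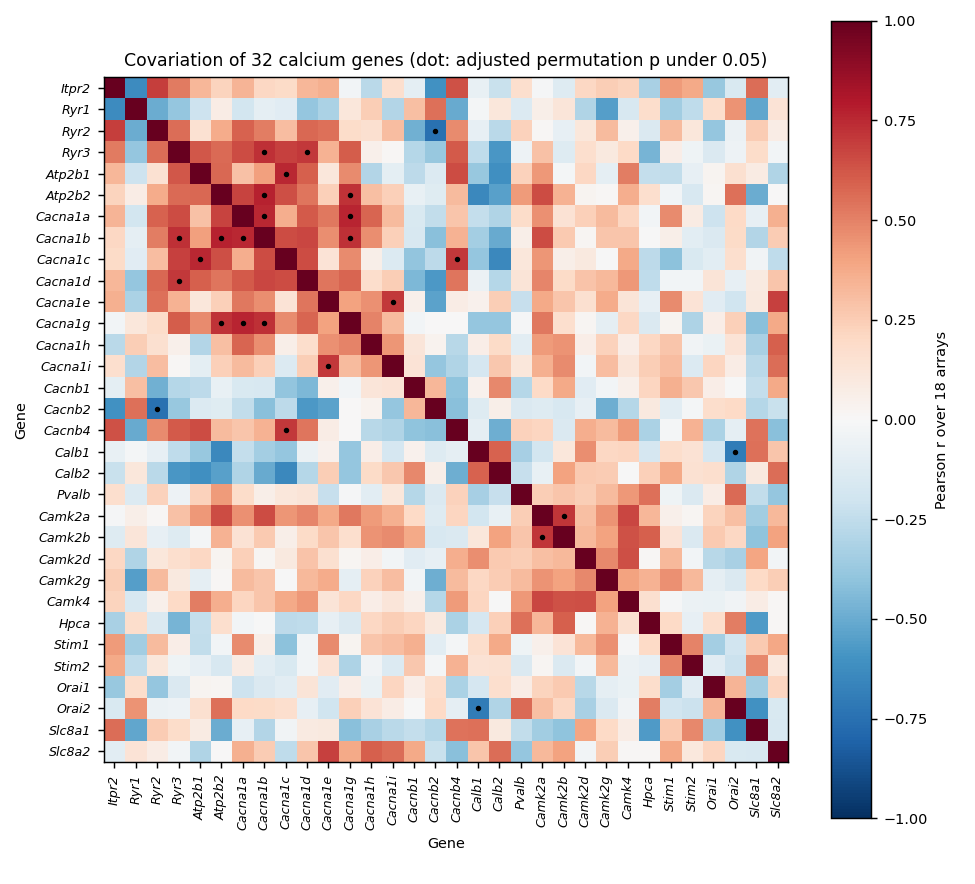
Pearson r over 18 arrays for every pair of the 32 calcium genes, from blue (-1) to red (1), with a dot where the adjusted permutation p was under 0.05. Dots mark 13 pairs, 5 of them among Atp2b2, Cacna1a, Cacna1b and Cacna1g, and the largest r is 0.771.

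To show what lies upstream of the genes in the leading pairs, promoter sequence is given for 4 of them, from RefSeq, build GRCm38.p6. Each line holds the 250 bases before the annotated start that lay nearest the gene's outermost start, read 5′ to 3′ on the gene's strand. That start lay 12 bases inside the outermost one for Atp2b1, 48 for Cacna1b, 533 for Atp2b2 and 975 for Cacna1c. The positions are chr10:98914392-98914641 on the plus strand for Atp2b1, and on the minus strand chr6:119196410-119196659 for Cacna1c, chr6:114042081-114042330 for Atp2b2 and chr2:24763153-24763402 for Cacna1b. Capitals mark the GC box, GGGCGG on either strand, with overlapping matches counted separately.
Atp2b1: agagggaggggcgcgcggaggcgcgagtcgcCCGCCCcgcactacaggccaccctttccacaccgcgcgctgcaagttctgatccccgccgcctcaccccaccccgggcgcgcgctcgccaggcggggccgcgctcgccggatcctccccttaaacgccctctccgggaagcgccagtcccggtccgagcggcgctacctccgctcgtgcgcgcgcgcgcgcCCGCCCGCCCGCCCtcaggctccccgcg
Cacna1c: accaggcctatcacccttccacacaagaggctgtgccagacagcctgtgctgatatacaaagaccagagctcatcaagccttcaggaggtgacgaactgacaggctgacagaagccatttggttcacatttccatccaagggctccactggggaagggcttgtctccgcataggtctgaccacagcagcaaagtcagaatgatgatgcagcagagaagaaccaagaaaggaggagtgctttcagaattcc
Atp2b2: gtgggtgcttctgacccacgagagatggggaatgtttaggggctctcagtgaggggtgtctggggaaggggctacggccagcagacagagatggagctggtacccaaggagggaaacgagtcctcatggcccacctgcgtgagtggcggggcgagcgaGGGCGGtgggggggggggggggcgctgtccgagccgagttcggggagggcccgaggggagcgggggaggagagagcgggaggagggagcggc
Cacna1b: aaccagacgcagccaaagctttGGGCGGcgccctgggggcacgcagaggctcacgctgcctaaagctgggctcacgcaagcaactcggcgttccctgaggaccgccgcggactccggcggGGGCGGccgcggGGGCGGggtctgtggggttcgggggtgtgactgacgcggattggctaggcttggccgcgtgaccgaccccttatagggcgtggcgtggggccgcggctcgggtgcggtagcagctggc

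The pair Atp2b1 and Cacna1c was unlike in sequence. The Atp2b1 stretch was 78.4% G or C and held 4 GC boxes, 3 of them overlapping near the start, and that of Cacna1c was 51.6% G or C and held 0. The pair Atp2b2 and Cacna1b was more alike, at 69.6% and 72% G or C with 1 and 3 GC boxes. Of the 32 genes, 23 were in the promoter table, and 1 start was taken for each. Some lay far inside the outermost start, by 158865 bases for Cacna1e and 6305 for Stim1. The median content of G or C of the 23 was 68.4%, against 52.4% over 32851 promoters of the same length. The 32851 hold every listed start, so a gene can enter more than once. A GC box was found in 16 of the 23, where 32.7% of all promoters hold one, CCAAT in 7 (33.8%), TATAAA in 1 (12.4%) and the cyclic AMP response element TGACGTCA in 0 (1.55%), each searched on both strands. These matches describe the letters only.

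The hypothalamus borders the thalamus, and a dissection can hold more or less of neighbouring tissue, so the calcium genes were set against 10 lists of regional and cell type markers. In bulk tissue fewer cells of a type and less RNA per cell cannot be told apart. Of 320 relations over 18 arrays, 3 passed an adjusted permutation p of 0.05 by Pearson r and 2 by Spearman rho. The largest was that of Atp2b1 with the mean of 14 thalamic markers (r = 0.881, rho = 0.894, adjusted permutation p = 0.0064 and 0.0032). It was 0.864 without the 2 farthest arrays and 0.874 within label groups, and ranged from 0.860 to 0.925 as each array was left out.

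Each of the 14 thalamic markers had r above 0 with Atp2b1, from 0.122 for Tnnt1 to 0.936 for Plekhg1, with Rora at 0.886, Ptpn3 at 0.877 and Prkcd, a kinase rich in thalamic relay neurons, at 0.850. Of the 19923 genes outside the list, Atp2b1 had the highest r with it. The list's mean ran from 9.02 on wt/KO 4, where Atp2b1 was also lowest at 11.37, to 9.46 on ko/WT 2, where Atp2b1 was 11.73. It lay between 9.06 and 9.46 with ending ko and between 9.02 and 9.35 with ending wt. All 14 markers were above 5.81 on at least 1 array. Their part in the level of Atp2b1 was not tested.

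Cacna1c also leaned towards the thalamic list (r = 0.727, rho = 0.687, adjusted permutation p = 0.0506), as did Atp2b2 (r = 0.656, rho = 0.592, adjusted permutation p = 0.0987) and Camk2a (r = 0.648, rho = 0.588, adjusted permutation p = 0.0987), none past the threshold. An absolute r of 0.6 or more with this list was found for these 4 of the 32 genes and for 1.35% of the 19923 genes. Itpr2 ran opposite to the mean of 21 hypothalamic markers (r = -0.774, rho = -0.705, adjusted permutation p = 0.0213 and 0.0903). That mean lay between 7.35 on ko/WT 5 and 7.65 on wt/KO 4. Quantile normalization took r to -0.658 (adjusted permutation p = 0.120), and without ko/WT 4 and wt/WT 3 it was -0.717 (adjusted permutation p = 0.0718).

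Ryr1 ran opposite to the mean of 12 astrocyte markers (r = -0.773, rho = -0.830, adjusted permutation p = 0.0213 and 0.0032). The markers' mean was lowest on wt/WT 2, at 10.11, where Ryr1 was highest at 7.0, and highest on ko/KO 1, at 10.42, where Ryr1 was 6.79. Without the 2 farthest arrays r was -0.621, and after quantile normalization -0.584 (adjusted permutation p = 0.185). The astrocyte mean was also low on ko/KO 2, at 10.12. That array and wt/WT 2 had the highest values of the first principal component (0.385 and 0.364). Ryr1 (r = 0.771) and Itpr2 (r = -0.656) followed that component, and its part in their marker relations was not tested. No share over all genes is given for the hypothalamic and astrocyte lists. Pvalb with the pan-neuronal list had r = 0.706 (rho = 0.598, adjusted permutation p = 0.0506). The other 7 lists (cortex and hippocampus, striatum, pan-neuronal, oligodendrocyte, microglia, endothelial and choroid plexus) held 0 relations that passed. The number over all lists was 6 without wt/KO 1, wt/KO 2 or wt/WT 3. The adjusted permutation p passed the threshold no longer for Itpr2 without wt/WT 2 (r = -0.736, p = 0.0528) and for Ryr1 without wt/WT 1 (r = -0.768, p = 0.0533) or wt/WT 2 (r = -0.679, p = 0.112).

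**Figure D4:**
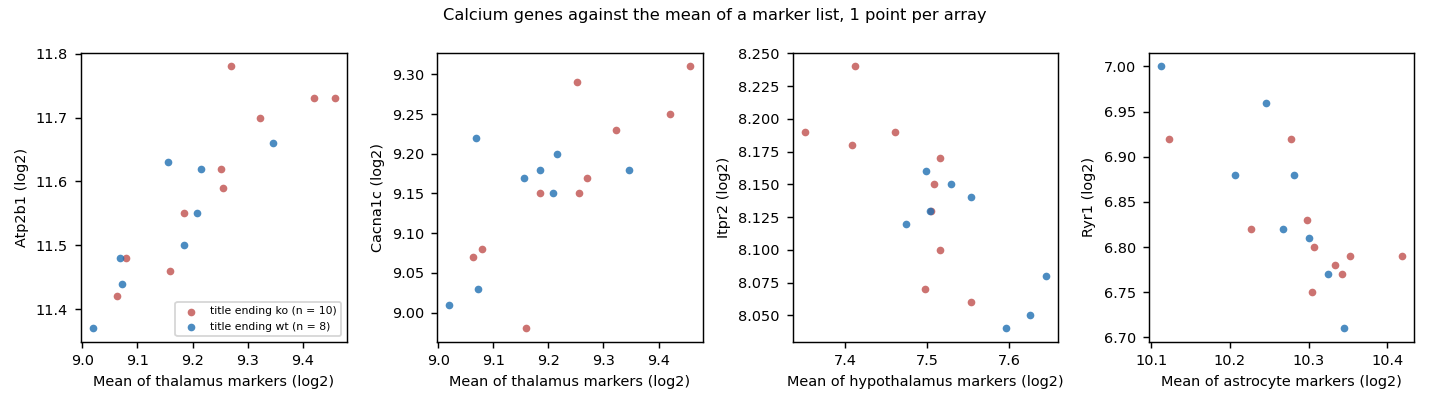
Log2 level of a calcium gene (vertical axis) against the mean log2 level of a marker list (horizontal axis), 1 dot per array, red for title ending ko (n = 10) and blue for ending wt (n = 8). Atp2b1 follows the thalamic markers (r = 0.881) more closely than Cacna1c does (r = 0.727), and Itpr2 and Ryr1 run opposite to the hypothalamic (r = -0.774) and astrocyte (r = -0.773) lists.

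The level of Wfs1 itself divided the arrays into 10 between 7.86 and 8.07 and 8 between 8.36 and 8.72, on either side of 8.2. These sides come from a measured level and are not genotypes, so the calcium genes were not compared between them, and their relation to Wfs1 was taken within each side. Of 64 relations 0 passed the adjusted threshold (lowest adjusted permutation p = 0.550). Below 8.2, 2 genes had an unadjusted permutation p under 0.05, and above 8.2, 1 did. No share over all genes is given beside these counts. The sign was the same on both sides for 18 of the 32 genes, and the median absolute r was 0.222 below and 0.407 above.

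Below 8.2 Cacnb4 had r = -0.701 with Wfs1 (rho = -0.650, permutation p = 0.0231 for r, adjusted p = 0.550), and -0.754 without the 2 farthest arrays. Orai1 had r = -0.687 (rho = -0.515, permutation p = 0.0286, adjusted p = 0.550), which rested on 2 arrays, since r was 0.006 without them. Above 8.2 Atp2b1 had r = -0.765 (rho = -0.777, exact permutation p = 0.0304, adjusted p = 0.550) and -0.618 without the 2 farthest arrays, with -0.603 below 8.2. Cacna1i had r = 0.729 above (rho = 0.611, exact permutation p = 0.0582, adjusted p = 0.550) and 0.133 below.

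**Figure D5:**
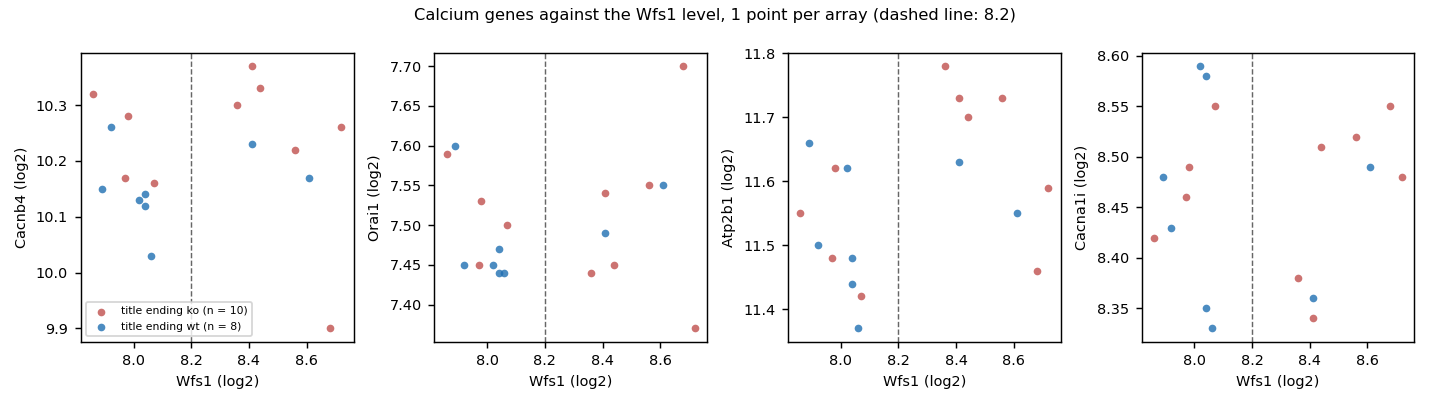
Log2 level of a calcium gene (vertical axis) against the log2 level of Wfs1 (horizontal axis), 1 dot per array, red for title ending ko (n = 10) and blue for ending wt (n = 8), with a dashed line at 8.2. Neither colour keeps to 1 side of the line, and within the sides the largest r is that of Atp2b1 above 8.2 (-0.765).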

How the data were processed

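Dissected, frozen hypothalami gave total RNA (Trizol) that was labelled with biotin for whole-transcript arrays, per the labels' protocols. The authors deposited 1 table of log2 expression values, the scale being read from the values (1.11 to 14.54). RMA and MAS5 are listed, per the submitters' processing notes, without a version or a role, and the array model is not given in the sources used here. The arrays did not share 1 distribution as deposited, with lower quartiles from 5.81 to 6.0 and SDs from 1.93 to 2.04.

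Of 34760 probesets, 21640 had 1 gene symbol, 1321 several and 11799 none in the platform annotation, and 21553 matched RefSeq (GRCm38.p6) by Entrez identifier. The brightest probeset stood for each of 19937 genes. Differences were fitted with limma 3.58.1 in R 4.3.3 (lmFit, eBayes, no covariates), with Benjamini-Hochberg adjustment over all genes. Correlations had two-sided permutation tests (100000 resamples, or all orders for 8 arrays), adjusted over the pairs or relations named. Procedures were tested on simulated data.

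The members, lists and tests were chosen with earlier results of these data known. Values are given for the 3 members with the smallest p per comparison, the 6 with the largest SD and the 6 pairs with the largest r. Other pairs and marker relations were picked after their values were seen. Alternatives were quantile normalization, a filter on the dimmest 40% of genes, the mean of probesets, limma's intensity trend, the first title number as a covariate, Spearman rho, correlation within label groups and leaving out each array.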

Additional observations from a re-analysis of the deposited data

Results flagged for a closer look

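Each calcium gene was checked in 6 groups of 4 to 10 arrays for a highest or lowest value that stood far from the others (Dixon's test at its 95% critical value). Of 192 such groups 14 held one, and chance gives about 1 in 20. The array ko/KO 2 held 5 of the 14. On it Ryr2 was low at 8.96, where the next value was 9.14, both among the ko/KO arrays and among all with ending ko. Cacnb4 was low there at 9.90 with the next at 10.16 among the arrays of ending ko, Camk2d was low at 10.21 with the next at 10.35, and the exchanger gene Slc8a2 was high at 8.70 with the next at 8.48, both among the ko/KO arrays.

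Among the ko/KO arrays, ko/KO 3 was high in Cacna1b at 9.84 (next 9.68) and in Camk2a at 11.23 (next 11.06). Stim2 was low on ko/WT 2, at 9.08, against 9.28 for the next ko/WT array and 9.27 for the next array of ending ko. Cacna1d was low on wt/KO 4 among the wt/KO arrays, at 8.28 with the next at 8.49. Among the arrays of ending wt, Cacna1g was high on wt/WT 1 at 9.89 (next 9.54) and Camk2d high on wt/KO 1 at 10.46 (next 10.34). Cacnb1 was low on wt/WT 4, at 8.40 with the next at 8.54, among the arrays of ending wt and among the wt/WT arrays.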

How the results depend on the processing

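In all 4 comparisons and the interaction, 0 calcium genes passed the adjusted limma threshold under every alternative run. Differences of the 3 members with the smallest p per comparison were followed through these alternatives. So were the 6 pairs with the largest r, the 3 marker relations that passed and the Wfs1 relations named above. None of these changed sign (Orai1 with Wfs1 did without the 2 farthest arrays, as given above). Other named differences and correlations were not followed in this way. Counts of covarying pairs did change. The number of the 496 pairs that passed, 13 by Pearson r, was 0 by Spearman rho, 34 after quantile normalization and 20 within label groups, and it ranged from 0 to 20 as each array was left out. The 3 relations to marker lists became 1 after quantile normalization and 8 within label groups, and ranged from 2 to 6 as each array was left out. The cause was not tested. The mean level of the set was 9.318 log2 units, and 9.282 with the dimmer probesets of Orai2 and Slc8a1 (an alternative added after seeing the data). For Orai2 the mean of both probesets was 8.817. Leaving out ko/WT 4 and wt/WT 3 together, also added later, gave 12 pairs and 3 marker relations. These were not all the same ones. Ryr3 with Cacna1b, Ryr2 with Cacnb2 and Itpr2 with the hypothalamic list no longer passed, so both counts include others that had not passed before.

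No paired analysis was possible because the labels give no replicate numbers that the groups share. The number of arrays limits the precision, and detection calls were not analysed here, so values near the dim end have no stated background. The genotype labels contradict each other on 9 arrays, which bounds what any difference here can be tied to.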
